A study of Mus musculus with 10 samples.

Results

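The chemokines and chemokine receptors described here are the genes whose names on the array begin with Ccl, Cxcl, Cx3cl, Xcl, Ccr, Cxcr, Cx3cr or Xcr and a number. They comprised 71 of the 55681 non-control probes on the array and stood for 55 genes, 35 of them ligands and 20 receptors. Expression was measured in epididymal white adipose tissue (eWAT), the fat pad along the epididymis, of 10 male wild-type mice of 1 group. By the labels these were adult C57BL/6JOlaHsd mice, entered as strain C57BL/6J in the sample records, and the design text gives an age of 9 weeks at the start. They received a purified low fat diet for 3 weeks and then the high fat diet (HFD) for 12 weeks, and were housed at 29°C, which is thermoneutral for mice. During 5 days they were injected daily with desferrioxamine (DFO), a drug that binds iron, at 100 mg per kg body weight, and they were killed on day 6, 2 hours after the food was taken away. RNA of each mouse carried the dye Cy5 on its own array and was hybridised together with 1 pool labelled with Cy3. The pool combined RNA of all mice of the wider study, the injected mice and the controls included, so it was a common reference, and the arrays of the controls were not analysed here.

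Chemokines are small secreted or membrane-bound proteins that guide white blood cells along a concentration gradient. The families CC, CXC, CX3C and XC are named after the spacing of the first cysteines of the protein. Their receptors are G protein coupled receptors on the surface of the migrating cells, and many receptors bind several ligands. In obese adipose tissue this system is known for drawing in monocytes, which become macrophages, and several of its genes are induced by interferon gamma, by NF-kappaB or by low oxygen.

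All values are log2 ratios of a mouse (Cy5) over the pool (Cy3) after loess normalization within each array, and a mouse is named by its replicate number in the labels. A value of 1 means that the gene's signal was 2 times as bright for the mouse as for the pool. The dyes were not swapped, so the zero of each gene also holds the dye bias of its probe, and differences between mice were described but no ratio was tested against 0. Because whole tissue was used, fewer cells of a type and less RNA per cell cannot be told apart in any value below.

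The mice did not form 1 even set. On the first principal component of all expressed probes, which held 75.1% of the variance between mice, mice 4, 5, 6 and 7 scored between 0.281 and 0.448 and the other 6 mice between -0.366 and -0.137. Adipocyte markers were above background for 8 of 8 listed genes. All 8 had their 4 lowest values in mice 4 to 7, against 23.1% of all probes. The mean log2 ratio over the list was between -2.44 and -1.36 there against -0.14 to 0.64 in the other mice. Of the 10 macrophage markers, 7 had their 4 highest values in mice 4 to 7, against 19.2% of all probes. The mean over that list was between 0.54 and 0.80 there against -0.79 to 0.05 in the others. *Cd163*, a scavenger receptor on the same list, went the other way, with its 4 lowest values in mice 4 to 7 (-0.28 to -0.11). Its range was 1.83-fold, and its spread could not be tested against that of the pool. The haemoglobin genes *Hba-a1* and *Hbb-b1* were lowest in mice 4 to 7 as well. No defining marker of adipocytes or macrophages was at background, and the part of these shifts in cell markers in the chemokine values was not tested. Of the epididymis and sperm genes, 5 of 8 did not pass the filter on dim probes and the other 3 did (*Prm1*, *Prm2* and *Tnp1*). All 3 were highest in mouse 2. *Prm1* was -1.37 there and -4.11 to -2.93 in the other mice, and *Prm2* was -0.79 against -2.26 to -1.93. *Tnp1* was -0.89 in mouse 2 against -2.15 to -1.41. Whether the fat pad of mouse 2 carried other tissue was not tested. The labels give no treatment or batch that sets mice 4 to 7 apart, and they lay on 3 of the 5 slides, on 2 of which they shared the slide with mouse 3 and mouse 8.

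Of the 55 genes, 38 were well above background in Cy5 on at least 5 of the 10 arrays, which was the filter for expressed probes. They comprised 27 ligands and 11 receptors and were read by 48 probes, 41 of which were well above background on all 10 arrays. The 17 genes that did not pass were *Ccl20*, *Ccl22*, *Ccl26*, *Ccl28*, *Cxcl3*, *Cxcl5*, *Cxcl15* and *Cxcl17* among the ligands and *Ccr1*, *Ccr4*, *Ccr6*, *Ccr9*, *Ccr10*, *Cxcr1*, *Cxcr2*, *Cxcr5* and *Xcr1* among the receptors. The neutrophil receptors *Cxcr1* and *Cxcr2* were thus not well above background (0 and 3 arrays), nor was *Ccr1*, the receptor of *Ccl3*, *Ccl6* and *Ccl9* (1 array), although these ligands were above background on all arrays. Genes that did not pass have no measured order here.

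The spread of each gene between mice was set against that of the pool, which was the same RNA on every array, by Pitman and Morgan's test of paired variances with Benjamini-Hochberg adjustment over all 25132 probes above background in both dyes. Of the 44 chemokine and receptor probes tested, 33 varied more in Cy5 than in Cy3, against 59.7% of all probes. These probes stood for 29 of the 34 genes tested. The median standard deviation (SD) was 0.38 for log2 Cy5 and 0.08 for log2 Cy3, and the median ratio of the SDs was 5.36 for the 44 probes and 2.48 for all probes tested. The SD of the log2 ratio had a median of 0.37 for the 44 probes and of 0.18 for all. In 9 genes the highest mouse exceeded the lowest at least 4-fold, against 3.99% of all probes, and these were *Cxcl13*, *Ccl3*, *Cxcl14*, *Cxcl9*, *Ccl24*, *Ccr2*, *Ccl9*, *Ccl4* and *Ccl5*. Only 1 of the 44 probes, a second probe for *Ccl25*, varied less in Cy5 than in Cy3 (background 0.163%), and 10 were not called.

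**Figure D1:**
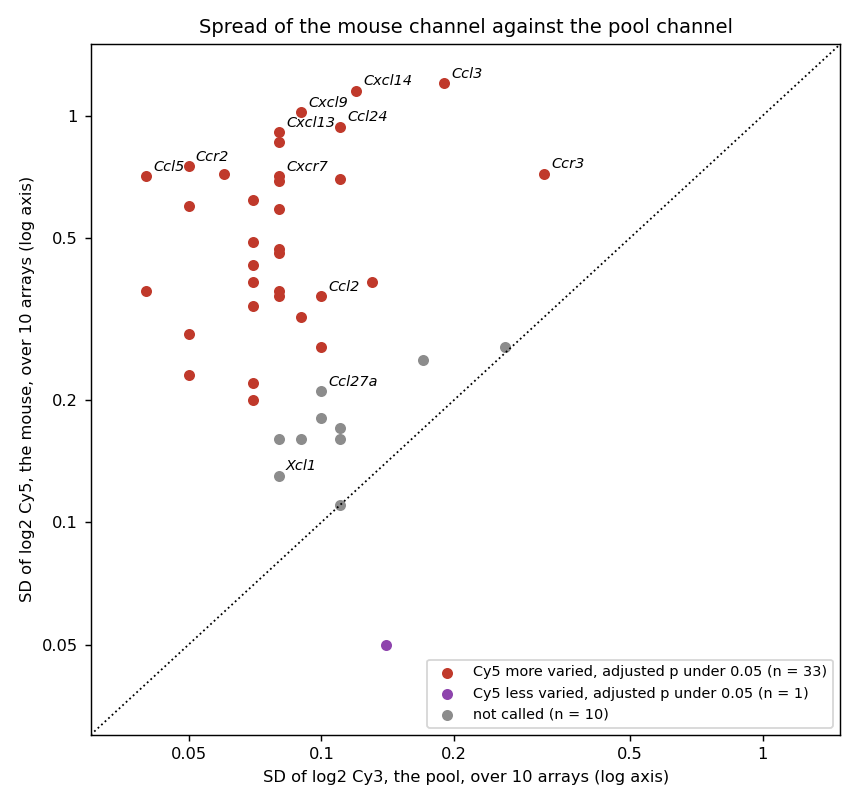
Each point is 1 of the 44 chemokine and receptor probes above background in both dyes, with the SD of the pool's log2 Cy3 signal on the x axis and the SD of the mice's log2 Cy5 signal on the y axis (both over 10 arrays, log axes); the dotted line marks equal spread. The 33 probes in red lie above the line, led by *Ccl3* and *Cxcl14*, while *Ccr3* stands out by the spread of its pool signal (0.32).

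Of the CC ligands that act on monocytes and macrophages, 9 of 9 genes on the array were above background. All 9 varied more in the mice than in the pool, against 59.7% of all probes. *Ccl3* and *Ccl4*, the macrophage inflammatory proteins, had their 4 highest values in mice 4 to 7. *Ccl3* was 1.35, 1.12, 0.89 and 1.19 in mice 4 to 7 and -0.59, -0.15, -0.27, -0.74, -1.40 and -1.20 in mice 1, 2, 3, 8, 9 and 10. The lowest of the former was thus above the highest of the latter, and mouse 4 exceeded mouse 9 by 6.75-fold (SD of the log2 ratio 1.04, SD ratio of the dyes 6.18, Pitman-Morgan adjusted p = 2.83e-06). *Ccl4* was 1.36, 0.83, 0.89 and 0.87 in mice 4 to 7, and among the others it reached 0.57 in mouse 2 and fell to -0.77 in mouse 9. The gap between the sets of mice was narrower for *Ccl4* than for *Ccl3*, and its full range was 4.38-fold (adjusted p = 0.000127).

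*Ccl6* and *Ccl9* are chemokines of rodents that are abundant in myeloid cells and bind *Ccr1*. *Ccl9* was 0.75, 0.91, 0.87 and 1.16 in mice 4 to 7 and 0.00, -0.13, -0.29, -0.32, -1.03 and -0.69 in mice 1, 2, 3, 8, 9 and 10, a range of 4.58-fold (adjusted p = 2.14e-06). *Ccl6* followed the same order at its ends, with 1.08 in mouse 7 as the highest and -0.77 in mouse 9 as the lowest value. Mouse 1, at 0.26, was the nearest to the 4 high mice for *Ccl6*.

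*Ccl5*, which attracts T cells and other leukocytes, ran the other way. It was -0.71, -0.73, -0.68 and -0.95 in mice 4 to 7 and 0.83, 0.28, 1.12, -0.16, 0.27 and 0.28 in mice 1, 2, 3, 8, 9 and 10. Its pool signal had an SD of 0.04 only, so that the SD ratio of the dyes, 18.8, was the largest among the chemokine and receptor probes (adjusted p = 2.51e-07). The range from mouse 7 to mouse 3 was 4.19-fold. Of the 8 T and NK cell markers above background, 3 also had their 4 lowest values in mice 4 to 7, against 23.1% of all probes. Among the 3 were *Cd3g* and *Gzma*. *Cd3e*, *Cd4* and *Nkg7* did not have their lowest values there, and *Nkg7* was highest in mouse 4 (0.51). The mean over that list ranged from -0.25 to 0.49 over the mice.

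The ligands of *Ccr2*, the receptor by which monocytes leave the blood, moved less. *Ccl2*, the monocyte chemoattractant MCP-1, ran from -1.04 in mouse 9 to -0.12 in mouse 6 with a median of -0.53, which is a 1.90-fold range. Its probe was spotted 10 times on each array, and the pooled SD between those spots was 0.0777 against an SD of 0.295 between mice. *Ccl7* ranged from -1.30 in mouse 4 to -0.33 in mouse 3 and *Ccl12* from -0.23 in mouse 7 to 0.62 in mouse 1. None of the 3 ligands separated mice 4 to 7 from the rest. *Ccl8*, which binds *Ccr8* in mice, was highest in mice 1 and 9 (1.34 and 1.05) and lowest in mice 7 and 4 (-0.32 and -0.31), a 3.17-fold range.

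The CC ligands lie in groups on chromosome 11, and neighbours shared their pattern in part. In the build mm9 of the scanner files the probe of *Ccl5* lies at chr11:83339296-83339355, followed by those of *Ccl9* (chr11:83388223-83388282), *Ccl6* (chr11:83401997-83402056), *Ccl3* (chr11:83461358-83461417) and *Ccl4* (chr11:83478052-83478111). Mice 4 to 7 were the 4 lowest for *Ccl5* and the 4 highest for the next 4 genes, and this order was the same for all 5 genes with median centring, with the scanner's own log ratio and with the authors' normalized values. Elsewhere on the chromosome, the group with *Ccl2* (chr11:81850650-81850709), *Ccl7*, *Ccl11*, *Ccl12*, *Ccl8* and *Ccl1* held no gene with mice 4 to 7 together at either end.

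**Figure D2:**
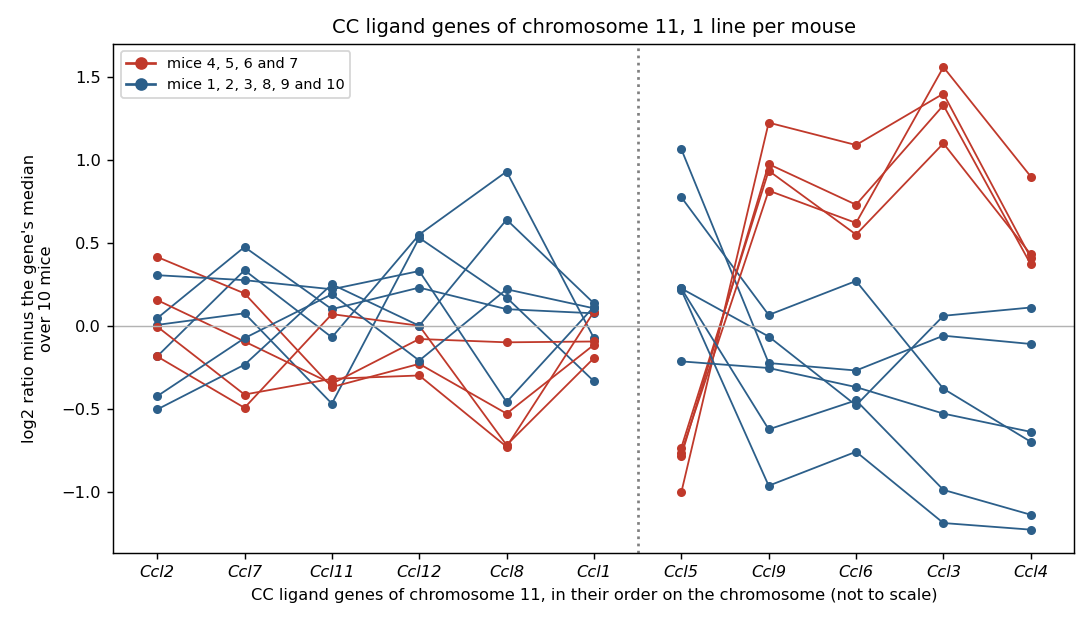
The 11 CC ligand genes of chromosome 11 that were above background stand in chromosome order on the x axis (not to scale; the dotted line parts the groups) and the y axis gives the log2 ratio minus the gene's median over the 10 mice, with 1 line per mouse. The red lines of mice 4 to 7 cross from the bottom at *Ccl5* to the top at *Ccl9*, *Ccl6*, *Ccl3* and *Ccl4*, while the lines of the 2 sets of mice are mixed from *Ccl2* to *Ccl1*.

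Among the CC ligands of eosinophils, basophils and T helper cells, 4 of 6 genes were above background. The 3 that could be tested varied more in the mice, as did 59.7% of all probes. *Ccl24* (eotaxin-2), a ligand of *Ccr3* that macrophages and other cells secrete, had the widest range. It was -1.28, -1.16, -1.07 and -1.29 in mice 4 to 7 and 0.28, -0.50, 0.32, 0.70, 0.36 and 1.08 in mice 1, 2, 3, 8, 9 and 10 (5.18-fold, adjusted p = 9.97e-06). Its probe is shown because its 60 bases measured one of the largest differences between the mice.
*Ccl24*: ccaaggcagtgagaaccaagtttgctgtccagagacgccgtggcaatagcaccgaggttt
*Ccl11*, the other eotaxin measured, ranged only from -0.41 in mouse 2 to 0.31 in mouse 9, with mouse 4 (0.13) apart from mice 5, 6 and 7 (-0.29, -0.31 and -0.26). *Ccl17* (-0.69 in mouse 5 to 0.43 in mouse 8) was above background on 5 arrays, and so was *Ccl1*, which could not be tested in both dyes.

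Of the CXC ligands that attract neutrophils through *Cxcr2*, *Cxcl1* was the one that could be tested, and it was called (adjusted p = 0.0174), with values from -0.48 in mouse 7 to 0.46 in mouse 1, a range of 1.92-fold. *Cxcl2* was above background on 5 arrays and not tested, and the SD of its log2 ratio depended on the processing (0.21, and 1.04 with the scanner's log ratio). *Cxcl3*, *Cxcl5* and *Cxcl15* did not pass the filter.

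*Cxcl9*, *Cxcl10* and *Cxcl11* are genes induced by interferon gamma, and *Cxcl9* and *Cxcl10* attract T cells that carry *Cxcr3*. *Cxcl9* was -1.03, -1.29, -0.96 and -1.59 in mice 4 to 7 and 0.87, -0.27, 0.88, 0.18, 0.56 and 0.80 in mice 1, 2, 3, 8, 9 and 10, a range of 5.55-fold (SD ratio 11.2, adjusted p = 9.91e-07). A second probe in the same transcript, with no run of 8 or more bases in common with the first, gave the same order of the 4 low mice against the rest and a range of 3.93-fold, and r between the probes was 0.997 over the 10 mice and 0.998 over the 6 mice outside the set of 4. The first 30 bases of each probe show that they are unlike.
*Cxcl9*, probe that stands for the gene: atgggatttcattattaacttgatcccatc
*Cxcl9*, other probe: aagtcgtcgtcgttcaaggaagactacata
*Cxcl10* (IP-10) had the same 4 mice lowest but a range of 2.38-fold only, from -0.91 in mouse 7 to 0.34 in mice 2 and 8 (adjusted p = 0.000164), and mice 4 and 6 at -0.33 and -0.26 lay close to mice 1 and 9 at -0.21. With median centring *Cxcl10* no longer had these mice at its 4 lowest places, whereas both *Cxcl9* probes did.

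*Cxcl11* must be read apart from the others. Neither of its probes varied more in the mice than in the pool (adjusted p = 0.342 and 0.167), and their values stayed between -0.58 and 0.18. The probe that stands for the gene shares runs of 16 bases with the promoters of 54 other genes out of 27025 genes in a RefSeq table, and the second probe with 9. Of the 48 expressed probes, only 2 shared such a run with 10 or more genes, this one and that of *Cxcr7* (27 genes). The stretches are printed with the run that occurs in most promoters in capitals, which was found in 24 and 3 genes.
*Cxcl11*, probe that stands for the gene: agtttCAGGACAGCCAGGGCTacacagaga
*Cxcl11*, other probe: tgaaaGGCAGAGGCAGGAGGAtctcttgag
The probe that stands for the gene was also the brightest of the chemokine and receptor probes, with a mean log2 Cy5 signal of 16.38. Whether other transcripts bound the *Cxcl11* probes was not tested.

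The lymphoid ligands *Ccl19*, *Cxcl12* and *Cxcl13* all varied more in the mice by the probes that stand for them (background 59.7%). *Cxcl13*, which attracts B cells through *Cxcr5*, had the widest range of all members, 8.06-fold (adjusted p = 9.95e-07), and this range was that of 1 mouse. *Cxcl13* was 1.56 in mouse 9 and between -1.45 (mouse 10) and -0.24 (mouse 8) in the other 9 mice, with a median of -0.45. It was well above background on 9 arrays. The B cell markers were mixed in mouse 9. It shared the highest *Cd79a* value with mouse 8 (0.23) and was at 0.29 for *Cd22*, but at -0.16 for *Cd79b* and -0.32 for *Ms4a1*. The mean over the B cell list was 0.06 in mouse 9, within a range from -0.34 to 0.29 over the mice. A part of B cells in the *Cxcl13* value was not tested. *Ccl19*, the ligand of *Ccr7* that leads T cells and dendritic cells to lymph nodes, was highest in mouse 2 (0.72) and lowest in mouse 6 (-0.72), and the next highest values were 0.20 and 0.10 in mice 1 and 3. Its probe is printed as the one that stands for the gene among 3.
*Ccl19*: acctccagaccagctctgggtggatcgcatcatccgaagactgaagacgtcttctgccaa
The other 2 *Ccl19* probes had mouse 2 highest as well (0.33 and 0.25), with r of 0.857 and 0.840 to the first over 10 mice. Their spread was smaller (SD 0.23 and 0.19 against 0.45), and r between these 2 was 0.499. The latter of them was not called (Pitman-Morgan adjusted p = 0.127).

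*Cxcl12* (SDF-1), the ligand of *Cxcr4* and *Cxcr7*, was read by probes of 2 transcripts that did not follow each other. The probe of NM_001012477 was lowest in mice 4 to 7 (-0.57, -0.62, -0.48 and -0.84) and highest in mouse 10 (0.29), whereas that of NM_021704 was lowest in mice 9, 8 and 10 (-0.51, -0.42 and -0.29) and highest in mouse 2 (0.19). Each varied more in the mice than in the pool (adjusted p = 4.67e-06 and 0.000608), and r between them was -0.177 over 10 mice and -0.342 over 6 mice. Both are printed by their first 30 bases because the result for the gene depends on the choice between them.
*Cxcl12*, probe of NM_001012477: aggagaaggcagcttcctatatgcagcgtg
*Cxcl12*, probe of NM_021704: gctgtaaacctcctaccgtatgtgggaatt
With median centring the first probe did not have mice 4 to 7 at its 4 lowest places.

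Of the epithelial ligands, 3 of 6 genes were above background and 1 varied more in the mice (background 59.7%). *Cxcl14* (BRAK), an ancient chemokine that adipose tissue and skin express, was 1.05, 1.08, 0.82 and 1.31 in mice 4 to 7 and -0.94, -0.09, -0.92, -1.27, -1.01 and -0.80 in mice 1, 2, 3, 8, 9 and 10. The range was 6.01-fold (SD ratio 9.24), and its adjusted p of 1.04e-07 was the smallest among the chemokine and receptor probes. Mouse 2 lay between the sets. *Ccl25* and *Ccl27a* were not called by the probes that stand for them (adjusted p = 0.103 and 0.0834), and their ranges were at most 1.48-fold.

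The transmembrane ligands *Cx3cl1* and *Cxcl16*, which can be held on the cell surface or shed, both varied more in the mice (background 59.7%). *Cx3cl1* (fractalkine) was high in mice 4, 2, 5 and 7 (0.82, 0.69, 0.64 and 0.58), near the pool in mouse 6 (0.05) and lowest in mouse 1 (-0.74), so it did not separate mice 4 to 7. *Cxcl16* had its 4 highest values in mice 4 to 7 (0.36 to 0.53), and mouse 2 came next with 0.28. *Xcl1* (lymphotactin), made by activated T and NK cells, was not called (adjusted p = 0.243). It was 0.33 in mouse 3 and between -0.15 and 0.09 in the other 9 mice, a difference that was small in size, and its probe is printed as that of 1 of 3 genes in which 1 mouse stood far from the rest.
*Xcl1*: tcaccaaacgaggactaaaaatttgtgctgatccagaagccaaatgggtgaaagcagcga

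**Figure D3:**
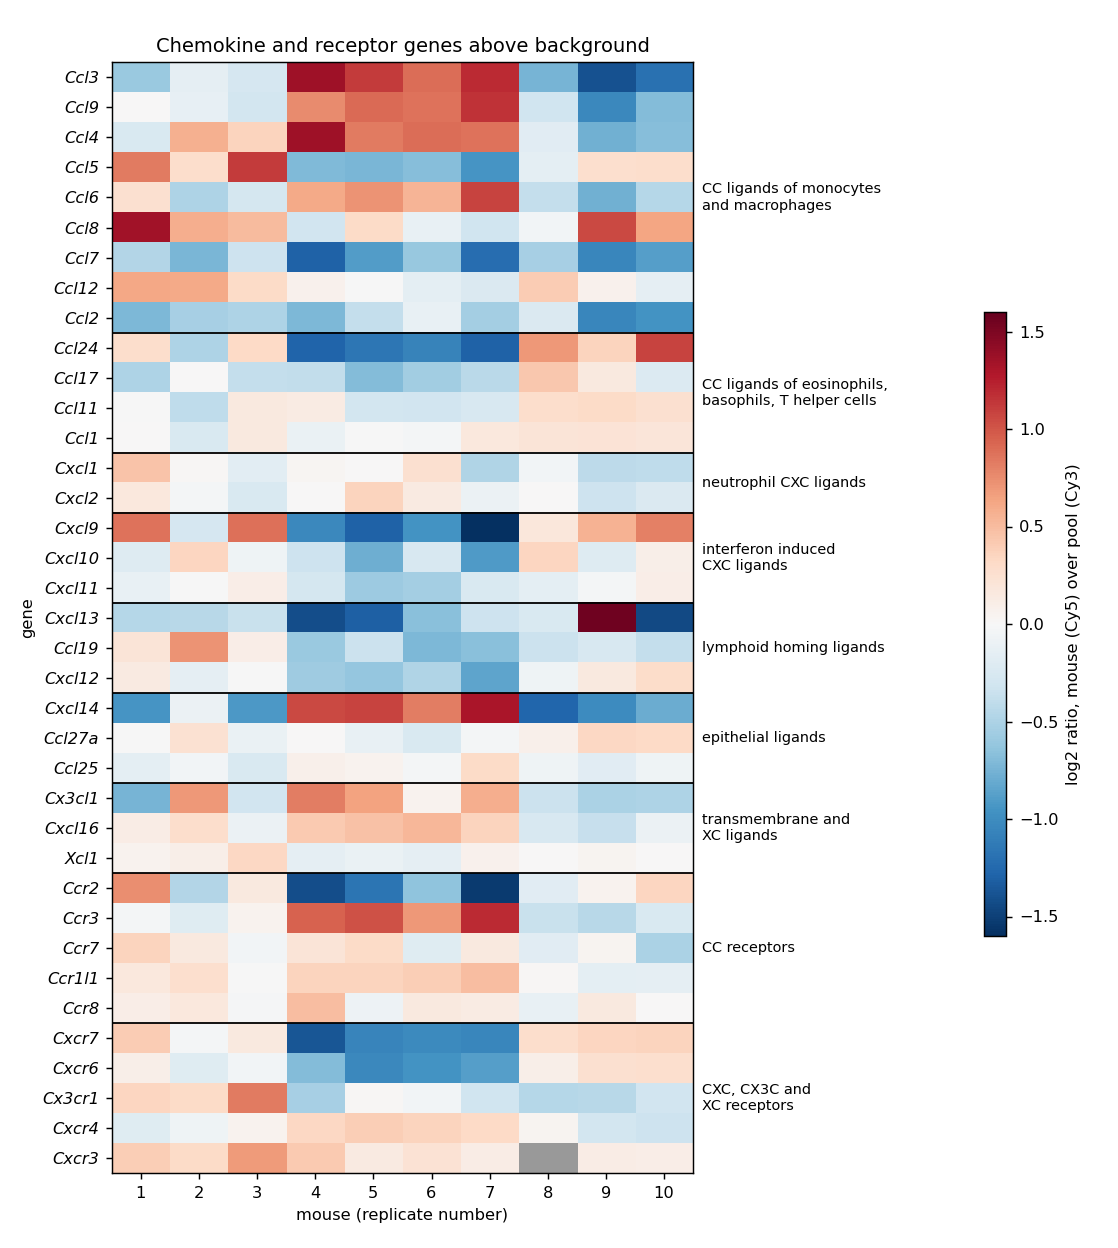
Log2 ratios (colour scale, mouse over pool) of expressed genes in rows, grouped by role and sorted by SD within a role, and of the 10 mice in columns. Columns 4 to 7 are red for *Ccl3*, *Ccl9*, *Ccl4*, *Ccl6*, *Cxcl14* and *Ccr3* and blue for *Ccl5*, *Ccl24*, *Cxcl9*, *Ccr2*, *Cxcr7* and *Cxcr6*, mouse 9 alone is red for *Cxcl13*, and the grey field is the *Cxcr3* spot of mouse 8, which the scanner software marked as an outlier.

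Among the receptors, 6 of 11 CC receptor genes were above background, and the 4 that could be tested were called (background 59.7%). *Ccr2*, the receptor of *Ccl2*, *Ccl7* and *Ccl12* on inflammatory monocytes, was -1.42, -1.17, -0.65 and -1.53 in mice 4 to 7 and 0.74, -0.47, 0.16, -0.18, 0.06 and 0.34 in mice 1, 2, 3, 8, 9 and 10 (4.83-fold, SD ratio 15.3, adjusted p = 4.6e-07). Mouse 6 and mouse 2 lay close together, and with median centring mice 4 to 7 were not the 4 lowest. *Ccr3*, the receptor of eotaxins, was 0.95, 1.02, 0.69 and 1.20 in mice 4 to 7 and at most 0.06 (mouse 3) in the others. The *Ccr3* pool signal itself varied with an SD of 0.32, so its SD ratio was 2.27 and its adjusted p 0.0332. *Ccr3* and its ligand *Ccl24* thus had mice 4 to 7 at opposite ends. *Ccr7* ranged from -0.51 in mouse 10 to 0.35 in mouse 1. *Ccr1l1* and *Ccr8* were above background in Cy5 on 5 arrays and were not tested.

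Of the CXC, CX3C and XC receptors, 5 of 9 genes were above background and 4 were called (background 59.7%). *Cxcr7*, a receptor that takes up *Cxcl12* without the usual G protein signal, was -1.37, -1.06, -1.02 and -1.05 in mice 4 to 7 and between -0.03 (mouse 2) and 0.41 (mouse 1) in the others (3.44-fold, adjusted p = 2.09e-05). The *Cxcr7* probe shares runs of 16 bases with the promoters of 27 other genes, and whether other transcripts bound it was not tested. *Cxcr4*, the other receptor of *Cxcl12*, had its 4 highest values in the mice in which *Cxcr7* was lowest, within a range of 1.65-fold (0.32 to 0.39 in mice 4 to 7, and -0.33 to 0.05 in the others, adjusted p = 0.00182). *Cxcr6*, the receptor of *Cxcl16* on T and NK cells, was -0.70, -1.03, -0.96 and -0.88 in mice 4 to 7 and from -0.20 (mouse 2) to 0.27 (mouse 10) in the others. Its second probe gave the same sets with r of 0.957, but the probes share 50 bases and are 1 measurement of the transcript rather than 2. *Cx3cr1*, the fractalkine receptor of monocytes and macrophages, was highest in mouse 3 (0.83) and lowest in mouse 4 (-0.53). Its second probe was not called (adjusted p = 0.246) and had mouse 2 highest (0.19), with r of 0.614 to the first. *Cxcr3* was not called (adjusted p = 0.116).

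**Figure D4:**
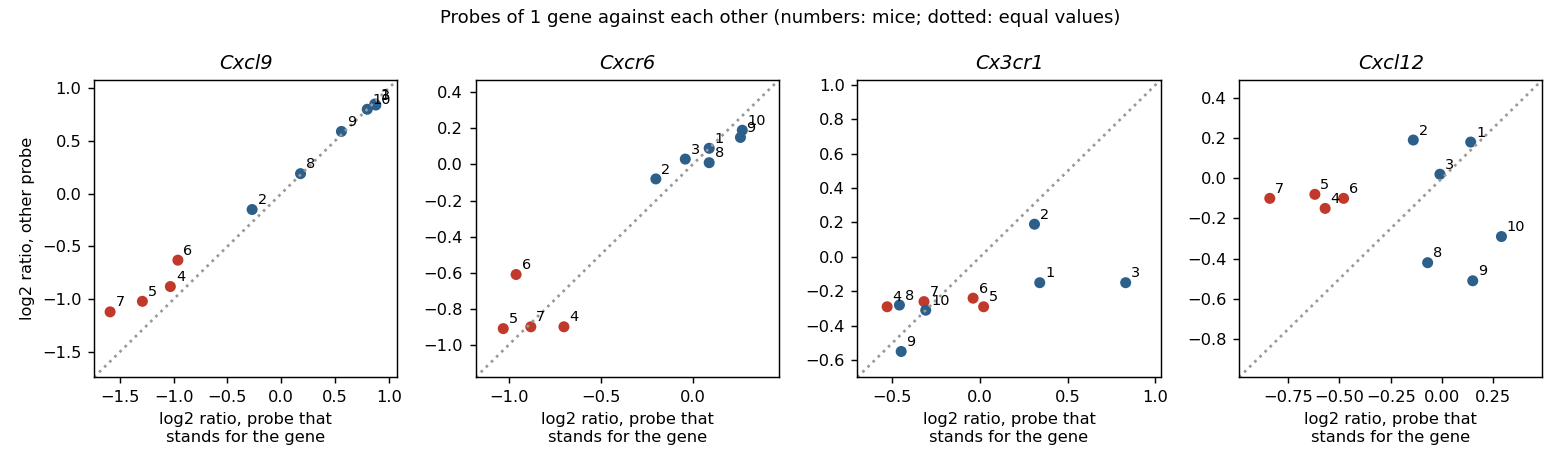
Log2 ratios of the probe that stands for a gene (x axis) against those of another probe of the same gene (y axis) for 4 genes, with 1 numbered point per mouse, mice 4 to 7 in red and equal values on the dotted line. The points follow the line for *Cxcl9* and for the overlapping *Cxcr6* probes, and leave it for *Cx3cr1* (r 0.614) and *Cxcl12* (r -0.177).

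Counted over probes, mice 4 to 7 held the 4 highest places in 10 of the 44 tested chemokine and receptor probes, against 19.2% of all probes, and the 4 lowest in 12, against 23.1%. These shares are near the background. Among the 10 were the probes of *Ccl3*, *Ccl4*, *Ccl6*, *Ccl9*, *Ccl25*, *Cxcl14*, *Cxcl16*, *Ccr3* and *Cxcr4*, and the 12 probes read the 9 genes *Ccl5*, *Ccl24*, *Cxcl9*, *Cxcl10*, *Cxcl11*, *Cxcl12*, *Ccr2*, *Cxcr6* and *Cxcr7*. Median centring moved the median of the expressed probes from a log2 ratio of 0.01 to 0.32 and left 8 of the 10 (*Ccl25* was not among them) and 7 of the 12 (without *Ccr2*, *Cxcl10*, *Cxcl12* and both *Cxcl11* probes). Mouse 4 shared a slide with mouse 3 and mouse 7 with mouse 8, and since the probes were counted by the places of mice 4 to 7, the order within these slides was fixed by that choice and only the sizes are given. Mouse 4 exceeded mouse 3 and mouse 7 exceeded mouse 8 by 1.62 and 1.93 for *Ccl3* and by 1.97 and 2.59 for *Cxcl14*. The differences were -1.82 and -0.80 for *Ccl5* and -1.91 and -1.77 for *Cxcl9*.

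**Figure D5:**
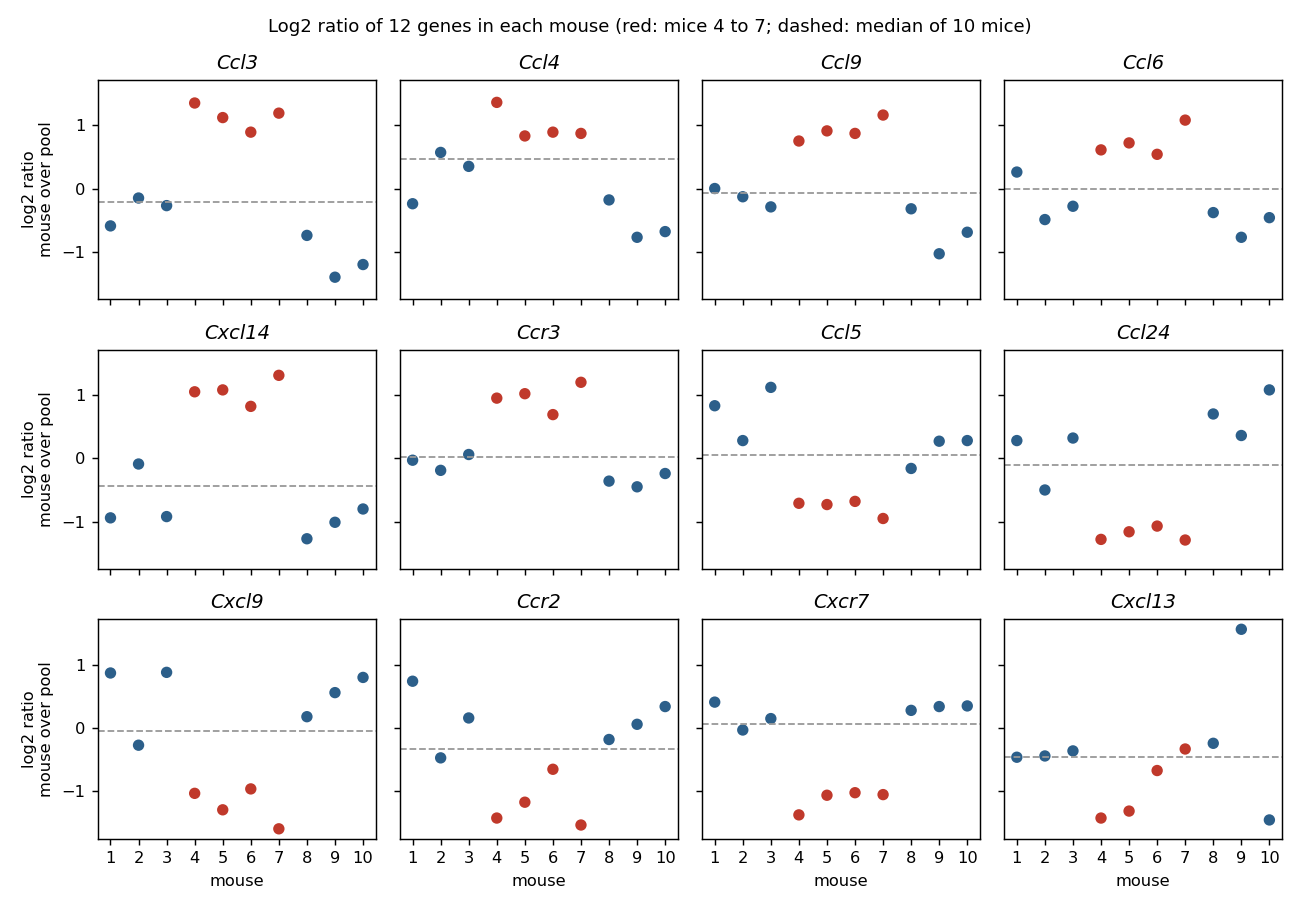
Log2 ratio (y axis, mouse over pool) of 12 genes in each of the 10 mice (x axis), with mice 4 to 7 in red and the median of the 10 mice as a dashed line. The red points are the 4 highest for *Ccl3*, *Ccl4*, *Ccl9*, *Ccl6*, *Cxcl14* and *Ccr3* and the 4 lowest for *Ccl5*, *Ccl24*, *Cxcl9*, *Ccr2* and *Cxcr7*, and for *Cxcl13* mouse 9 stands alone at 1.56.

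The slide was tested as a batch with limma's moderated F test. It called 0 of the 48 expressed chemokine and receptor probes and 0.0% of all 27801 probes tested, and the lowest adjusted p among the former was 0.698. At an unadjusted p under 0.05 were 11 of the 48 probes and 1142 of all probes.

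Textbook ligand and receptor pairs, and a few genes with a marker of the cells known to carry them, were compared over mice 1, 2, 3, 8, 9 and 10, since a correlation over all 10 mice would have reflected the 2 sets. Of 30 pairs listed, 21 could be computed. After Benjamini-Hochberg adjustment over the 21 pairs, 0 passed the threshold of 0.05 by the exact permutation test, two-sided, and 5 had an unadjusted p under 0.05. For *Ccl9* and the macrophage marker *Emr1*, r was 0.902 (exact p = 0.0111, adjusted p = 0.117) and rho 0.829 (exact p = 0.0583, adjusted p = 0.286), with r of 0.520 once the 2 mice farthest from the median of *Ccl9* were dropped. The r of *Ccl5* with the T cell marker *Cd3e* was 0.858 (exact p = 0.0222, adjusted p = 0.124; rho 0.714, exact p = 0.136, adjusted p = 0.286), that of *Ccl8* with *Cd163* 0.833 (exact p = 0.0236, adjusted p = 0.124; rho 0.829, exact p = 0.0583, adjusted p = 0.286), and both kept their sign without the 2 mice farthest out for the chemokine (0.767 and 0.998). The r fell to 0.350 with median centring for *Ccl5* and to 0.456 with the authors' normalized values for *Ccl8*. *Cd163* could not be tested for its spread against the pool. *Cxcl12* and *Cxcr4* had an r of -0.839 (exact p = 0.0472, adjusted p = 0.179) and a rho of -0.771 (exact p = 0.103, adjusted p = 0.286), with -0.945 without the 2 farthest. This relation depended on the processing, with r of 0.267 after median centring, -0.172 with the scanner's log ratio and -0.156 with the mean over the probes of a gene. *Ccl2* with its receptor *Ccr2* gave an r of -0.438 (exact p = 0.396, adjusted p = 0.520), and its sign turned with median centring (0.0629). Differences within the 5 slides gave 0.549, but these used all 10 mice. They set mouse 3 against mouse 4 and mouse 7 against mouse 8, across the 2 sets, so this value is not one over the same mice.

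Genes that act with the chemokine system were described from lists of textbook members. Of 24 genes that signal downstream of chemokine receptors, 22 were tested and 20 varied more in Cy5 than in Cy3, against 59.7% of all probes. Of the 23 above background in Cy5, 17 had their 4 highest values in mice 4 to 7, against 19.2% of all probes. *Rgs1*, which ends G protein signals, ran from -2.30 in mouse 9 to 1.52 in mouse 5, and the GTPase *Rac2* from -0.87 in mouse 9 to 1.17 in mouse 4. Of 6 proteases that cut chemokines, 5 passed the filter and all 5 were called (background 59.7%), among them *Mmp12*, a macrophage elastase (-1.93 in mouse 9 to 1.72 in mouse 4), and *Dpp4*, which trims chemokines at their end and was lowest in mice 4 to 7 (-0.99 to -0.57). Of 9 atypical receptors and ligands that carry other names, 8 were called (background 59.7%). In 3 of the 9, mice 4 to 7 held the 4 lowest places, against 23.1% of all probes, and in 0 the 4 highest, against 19.2%. *Rarres2*, the precursor of chemerin, an attractant that adipocytes secrete, ranged from -1.64 in mouse 7 to 0.55 in mouse 8 (4.56-fold), and the scavenging receptor *Ccbp2* was lowest in mice 4 to 7 (-0.79 to -0.65).

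Promoters of 39 of the 55 genes were found in a RefSeq table (build GRCm38.p6), and the 250 bases before the start of transcription were searched on both strands for 3 short motifs. A form of the NF-kappaB motif, which can be read from the capitals printed for *Cxcl1* and *Cxcl2* with any base in the middle, was found in 4 of the 39 genes (*Cxcl1*, *Cxcl2*, *Cxcl3* and *Ccr3*), against 0.356% of 32851 promoters. TTCNNNGAA, the STAT site, was found in 4 (*Ccl17*, *Ccr1l1*, *Ccr6* and *Cxcl14*), against 7.02%, and ACGTG, the core of the hypoxia response element, in 5 (*Ccl1*, *Ccr6*, *Cxcl1*, *Cxcl3* and *Xcr1*), against 16.6%. These motifs do not overlap each other in the promoters shown. A match is a description of letters and no binding was measured. Of the genes with the NF-kappaB form, *Cxcl3* was not above background. The promoters of 4 genes with a match, and of *Ccl3* and *Cxcl9* as members with mice 4 to 7 at opposite ends and none of the 3 motifs, are printed with matches in capitals, read along the gene's strand.
*Ccr3* (chr9:124021721-124021970, plus strand, NF-kappaB form on the minus strand from 179 to 170 bases before the start): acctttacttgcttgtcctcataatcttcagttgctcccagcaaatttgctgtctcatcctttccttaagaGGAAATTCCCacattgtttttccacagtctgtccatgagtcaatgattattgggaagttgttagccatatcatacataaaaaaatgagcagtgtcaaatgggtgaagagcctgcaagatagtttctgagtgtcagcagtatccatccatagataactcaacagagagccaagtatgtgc
*Cxcl14* (chr13:56296552-56296801, minus strand, TTCNNNGAA from 191 to 183): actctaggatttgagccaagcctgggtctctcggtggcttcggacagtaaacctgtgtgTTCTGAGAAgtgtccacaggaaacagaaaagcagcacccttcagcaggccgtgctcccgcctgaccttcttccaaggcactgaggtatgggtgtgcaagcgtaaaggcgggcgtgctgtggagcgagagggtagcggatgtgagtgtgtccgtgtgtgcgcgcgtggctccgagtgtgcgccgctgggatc
*Cxcl1* (chr5:90890995-90891244, plus strand, ACGTG on the minus strand from 196 to 192 and the NF-kappaB form from 71 to 62): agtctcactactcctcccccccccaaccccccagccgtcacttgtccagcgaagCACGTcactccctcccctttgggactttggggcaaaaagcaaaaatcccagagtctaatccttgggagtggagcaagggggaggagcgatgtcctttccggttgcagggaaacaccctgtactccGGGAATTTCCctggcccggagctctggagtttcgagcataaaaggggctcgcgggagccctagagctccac
*Cxcl2* (chr5:90903649-90903898, plus strand, NF-kappaB form from 97 to 88): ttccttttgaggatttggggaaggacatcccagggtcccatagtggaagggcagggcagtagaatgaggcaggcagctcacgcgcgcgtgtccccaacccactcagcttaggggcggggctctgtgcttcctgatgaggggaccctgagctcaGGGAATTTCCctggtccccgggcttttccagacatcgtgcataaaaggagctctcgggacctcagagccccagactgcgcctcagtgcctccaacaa
*Ccl3* (chr11:83649379-83649628, minus strand): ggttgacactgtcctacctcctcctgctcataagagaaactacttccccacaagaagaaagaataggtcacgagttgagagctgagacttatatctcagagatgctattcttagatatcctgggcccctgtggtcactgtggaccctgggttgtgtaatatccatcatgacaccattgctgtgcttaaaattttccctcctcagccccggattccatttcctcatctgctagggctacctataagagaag
*Cxcl9* (chr5:92328080-92328329, minus strand): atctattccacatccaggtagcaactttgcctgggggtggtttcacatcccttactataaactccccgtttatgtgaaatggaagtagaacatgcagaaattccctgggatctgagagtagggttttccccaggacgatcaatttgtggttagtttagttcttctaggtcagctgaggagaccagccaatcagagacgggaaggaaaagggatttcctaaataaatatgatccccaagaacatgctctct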

How the data were processed

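RNA of eWAT of 10 DFO injected mice was measured on two-colour Agilent arrays that shared 5 slides, with 2 on a slide. For each array the authors deposited the scanner output of Agilent Feature Extraction 10.7.3.1, as the labels' processing notes name it. Its intensity values are the brightness of each spot and of its background in each dye, as deposited without normalization. The deposited log10 ratio of Cy5 over Cy3 was computed by that software. The deposited table of normalized values is on a log2 scale, as its values follow the log2 Cy5 signal of each array, and the normalization behind it is not given in the sources used here. Both were used as alternatives only.

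Mean signals were background-corrected with normexp (offset 50), which pulls ratios of dim spots towards 0, and normalized by loess within arrays with limma 3.58.1 in R 4.3.3. For the signals of the single dyes, Aquantile was then applied between arrays. It evens out the mean log intensity of both dyes and leaves the ratio as it was. Control spots were left out. Outlier spots were left out of the loess fit and of the averages, but not of the step between arrays. Spots of a probe were averaged (59305 spots, 55681 probes), and a gene stood by its expressed probe with the highest mean Cy5 signal. The median Cy5 signal of an array was 54.8 to 81.3. The number of arrays limits the precision. The labels call the 10 samples replicates of individual mice. The p-values of the variance test compare the spread of Cy5 over these arrays with that of Cy3. Each mouse had its own array only, so the Cy5 spread also holds the handling and labelling of each sample. Variances were compared by the Pitman-Morgan test, the slide by limma's moderated F test and pairs of genes by exact permutation. All these were tested on simulated data or enumerated in full. Each role list was described with its 4 most variable members first, beside pairs and genes with 1 mouse far from the others. The members, lists, pairs and tests were chosen with earlier results of these data known. Alternatives were other normalizations, filters, probes and tests and leaving out each mouse. Some results that enter the counts are not reported here by name.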

Additional observations from a re-analysis of the deposited data

Results flagged for a closer look

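In 3 of 38 expressed chemokine and receptor genes, 1 mouse lay so far from the other 9 that its gap to the nearest of them, divided by the range of all 10, exceeded Dixon's critical value for 10 samples. Chance flags about 1 in 20 such sets of values, and 5.18% of all 27804 expressed probes met this limit, so the count is not above the background. *Cxcl13* stood alone in mouse 9 by 0.597 of its range. *Ccr8* stood alone in mouse 4 by 0.531 of its range, but its log2 ratio there was 0.49 and its probe was above background in Cy5 on 5 arrays only. *Xcl1* stood alone in mouse 3 by 0.513 of its range, at a log2 ratio of 0.33.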

How the results depend on the processing

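Without normalization between arrays, 17 of the 44 chemokine and receptor probes and 4706 of all probes varied more in Cy5 than in Cy3, in place of 33 and 15009. Among alternatives added after seeing the data, median centring gave 7 in place of 12 probes with mice 4 to 7 at their 4 lowest places. The count of genes with 1 mouse far from the others was 3, and came to 1 by the log ratio of the scanner (*Cxcr3*, mouse 3) and 0 where a probe had to be above background on all 10 arrays, a filter that leaves out *Cxcl13*, *Ccr8* and *Xcl1*. Leaving out each mouse in turn gave 31 to 33 chemokine and receptor probes and 13536 to 14446 probes in all that varied more in Cy5, 0 to 0 pairs past the threshold, a median SD of 0.36 to 0.42 and 2 to 3 genes with 1 mouse far from the others. At an unadjusted p under 0.05 for the slide were 7 (scanner's log ratio) to 18 (no filter) chemokine and receptor probes in place of 11, and 0 passed the adjusted threshold in each. Probes that varied less in Cy5 came to 0 to 2 in place of 1, and to 17 (all 10 arrays above background) to 545 (no filter) in place of 41 among all probes. Of 605 SDs of single genes under alternatives, 9 moved by more than the SD itself, mostly of dim genes with the scanner's log ratio, such as *Ccr1l1* with 1.06. No paired analysis was possible because the samples form 1 group. The signal over background limits what can be said of the 17 genes that did not pass, and 10 arrays without a control array allow no statement on DFO.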
